A study of Mus musculus with 12 samples.

Results

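The proteasome genes of mouse spinal cord were compared between healthy and diseased cords. The set holds every gene whose probe sets on the array carry a single symbol beginning with Psm, a letter from a to g and a digit. That rule took 48 of the 12393 genes named on the array, with 85 of its 22690 probe sets. Each gene was read from its brightest probe set, by mean log2 signal over the 12 arrays. Of the 48 genes, 46 lay above the filter on dim probe sets and were tested, and Psma8 and Psmb8 lay below it. Psmc3ip and Psme3ip1 match the spelling but encode no proteasome subunit. They have a role of their own below, but counts over the 48 or 46 genes include them.

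The proteasome is the large protease that degrades proteins marked with ubiquitin. Its barrel-shaped core is built from rings of alpha and beta subunits, and the proteolytic sites lie in the beta subunits Psmb5, Psmb6 and Psmb7. Regulatory particles cap the core: a base with ATPases (Psmc genes) that unfold the substrate, and a lid that removes ubiquitin chains. Interferons induce alternative catalytic subunits (Psmb8, Psmb9 and Psmb10), which form the immunoproteasome, and the activator subunits Psme1 and Psme2, which open the core without ubiquitin. In neurons the proteasome also takes part in the turnover of synaptic proteins, and the survival motor neuron protein is itself one of its substrates.

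All mice came from line 4299 on the FVB strain, a model of severe spinal muscular atrophy (SMA), a disease of motor neurons in which too little survival motor neuron protein is made. All 3 groups carried the human SMN2 and SmnΔ7 transgenes. Wildtype mice kept 1 mouse Smn allele (mSmn+/-) and received vehicle. SMA mice had none (mSmn-/-) and received vehicle or ceftriaxone, a beta-lactam antibiotic, at 200 mg/kg daily by intraperitoneal injection from day 5. Each group holds 4 arrays of separate samples, taken at 13 days of age from cords perfused with fixative. The labels mention whole cords as well as lumbar segments and give no sex. With 4 arrays a group, the number of arrays limits the precision.

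Values are MAS5 signals on a linear scale, and differences are on the scale of log2(signal + 16) with their standard error (SE). A gene was called when the adjusted p of limma, with Benjamini-Hochberg adjustment over 13575 probe sets, was under 0.05. Such p-values measure the spread between these samples. The check gene Smn1, read from a fit without the filter on dim probe sets, fell by 4.00 in SMA vehicle cords (limma adjusted p = 6.75e-07). Gapdh control signals, 3 prime over 5 prime, gave ratios of 0.72 to 0.761, a measure of RNA integrity that was alike on all arrays. Xist signal, a mark of female cells, was above 1000 on wildtype array 3, SMA vehicle arrays 1 and 4 and all ceftriaxone arrays. The Y-linked Eif2s3y gave 0.3 to 5 there and 344.5 to 523.7 elsewhere. By both genes all ceftriaxone samples read as female, while each vehicle group held both sexes. Comparisons with ceftriaxone thus also differ in sex, and the part of sex was tried only with Xist as a covariate. Wildtype array 2 stood apart: the summed signal of 13 thymocyte and T cell genes was 54981 there and 1604 to 2386 on the other arrays. Wildtype array 3 had the highest sum of 10 interferon-induced genes, 12671, against 4134 on wildtype array 2 and 1377 to 1909 elsewhere. Values that array 2 moves most, among them those of the immunoproteasome and its antigen processing partners, are also given without it.

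Most proteasome genes had nearly the same signal in all groups, while a large share of the array changed. In SMA vehicle against wildtype cords, 47.2% of all probe sets tested were called, 24.9% higher and 22.3% lower. Of the 46 proteasome genes, 5 were called higher (Psme1, Psmf1, Psmb6, Psmc5 and Psmd1) and 1 lower (Psma5), which is 13%. Their median log2 difference was 0.0014. The median size of the difference, whatever its sign, was 0.065 in the proteasome genes and 0.30 over all probe sets. The median SE was 0.072 against 0.12, so the smaller differences did not come with wider errors. The 95% confidence interval of the difference lay within 0.5 either side of 0 for 39 of 46 genes (84.8%), and for 40.2% of all probe sets. The arrays of both groups were fully separated for 11 proteasome genes (23.9%), against 42.5% of all probe sets. The proteasome genes are read from their brightest probe sets, while the whole array includes dimmer ones. The sets were not matched for brightness. In bulk tissue, fewer cells of a type and less RNA per cell cannot be told apart.

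Between SMA cords given ceftriaxone and SMA cords given vehicle, 35.9% of all probe sets were called, 18.3% higher and 17.7% lower. No proteasome gene was higher, and 3 were lower (Psme1, Psmb6 and Psmc5), 6.52% of those tested. The median difference was -0.017, the median size was 0.071 against 0.24 over all probe sets, and the interval lay within 0.5 for 42 of 46 genes (91.3%, against 46.9%). Arrays were fully separated for 9 genes (19.6%), against 45.3% of all probe sets. Between ceftriaxone and wildtype cords, 4.21% of all probe sets were called, 3.29% higher and 0.928% lower, and 0 of 46 proteasome genes were called by limma. At an unadjusted p under 0.05 there were 3 proteasome genes (Psma5, Psme3 and Psmf1), 6.52%, against 20.1% of all probe sets. The comparisons share the SMA vehicle or the wildtype arrays, so they are not independent of each other.

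**Figure D1:**
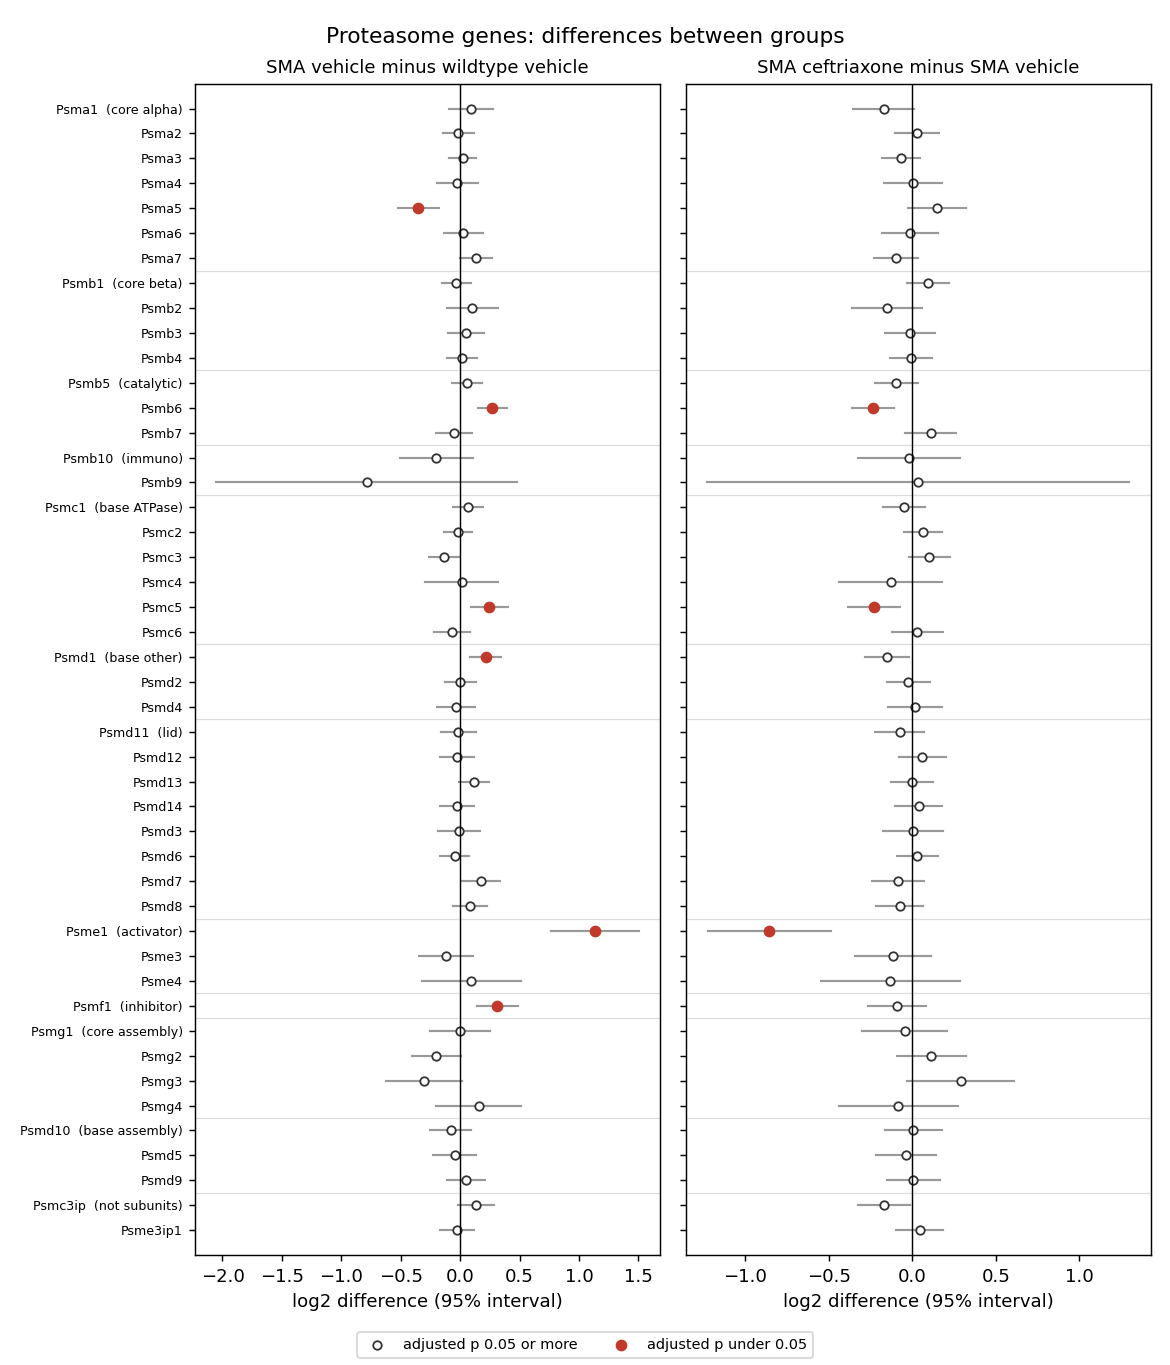
Log2 difference (x axis) of each tested proteasome gene (y axis, ordered by role) for SMA vehicle minus wildtype and for SMA ceftriaxone minus SMA vehicle, with bars for the 95% confidence interval and filled points for called genes; the x ranges of the panels differ. Psme1 lies far to the right in the first comparison (1.13) and to the left in the second (-0.86), and most other genes lie close to 0.

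Without wildtype array 2 the counts grew, for the proteasome genes as for the rest of the array. In SMA vehicle against wildtype, 8 genes were then higher, with Psma1, Psma7 and Psmd13 added, and 3 were lower, with Psmb7 and Psmc3 added, while 58.4% of all probe sets were called (30.9% higher and 27.5% lower). Between ceftriaxone and vehicle, 1 gene was higher (Psmb7) and 6 were lower, with Psma1, Psmc3ip and Psmd1 added, against 50.2% of all probe sets (24.6% higher and 25.6% lower). Between ceftriaxone and wildtype, Psme1 alone was called, against 10.6% of all probe sets (6.29% higher and 4.27% lower). Leaving out SMA ceftriaxone array 1 added Psmg3 to the genes lower in SMA vehicle cords, which made 2. Genes added by leaving out an array of a compared group had the same direction with all arrays in the fit. Wildtype array 2 is in neither group of ceftriaxone against vehicle, and ceftriaxone array 1 in neither of SMA vehicle against wildtype. In those cases the differences could not change, and the added calls came from the changed estimate of the spread.

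The largest change of any tested proteasome gene was that of Psme1, which encodes the alpha subunit of the 11S activator (PA28). Its signals were 1262, 2250.2, 1295 and 1099 on the wildtype arrays. They were 3016, 3004, 3329.6 and 3198 on the SMA vehicle arrays. The ceftriaxone arrays gave 1769.8, 1576, 1965 and 1605. Every SMA vehicle array was above every array of both other groups, and the other groups overlapped through wildtype array 2, the highest of its group. Mean signals were 1476 ± 523 (SD, n = 4), 3137 ± 156 and 1729 ± 179 for wildtype, SMA vehicle and ceftriaxone. Psme1 was 2.20-fold higher in SMA vehicle cords than in the wildtype (log2 difference 1.13 ± 0.17, SE; limma adjusted p = 0.000139).

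With ceftriaxone, Psme1 was lower than with vehicle by a log2 difference of -0.86 ± 0.17 (SE; limma adjusted p = 0.0019). Against wildtype it differed by 0.28 ± 0.17 (SE), which did not pass the threshold (adjusted p = 0.407). Wildtype array 2 bears on that last value. Without it the difference between ceftriaxone and wildtype was 0.50 ± 0.085 (SE; limma adjusted p = 0.00468), and Psme1 was called higher. The rise in SMA vehicle cords was 1.35 ± 0.085 (SE; limma adjusted p = 2.64e-07) without that array, and it ranged from 1.01 to 1.35 when each of the 12 arrays was left out.

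The other measured activator genes were not called. The beta subunit Psme2, the partner of Psme1 in the activator ring, has a probe set that carries a second symbol and was not used. Psme3, whose protein forms a nuclear activator ring, had signals of 552, 637, 596 and 552 in wildtype. The SMA vehicle arrays gave 505, 469.9, 613 and 563. Ceftriaxone cords had 418, 550.2, 504 and 504. The wildtype and SMA vehicle arrays overlapped, while every ceftriaxone array was just below every wildtype array. No difference was called: -0.12 ± 0.11 (SE) for SMA vehicle against wildtype, -0.12 ± 0.11 for ceftriaxone against vehicle, and -0.24 ± 0.11 for ceftriaxone against wildtype, with limma adjusted p of 0.369, 0.415 and 0.226. Psme4, which encodes the single-chain activator PA200, differed by 0.095 ± 0.19 (SE; adjusted p = 0.712) in SMA vehicle cords, with group means of 952 ± 273 (SD, n = 4), 995 ± 139 and 915 ± 185.

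The genes beside Psme1 on chromosome 14 were read to see whether the rise covered the locus. Among the 5 genes on each side in the RefSeq order, 5 were tested: Cpne6, Pck2, Dcaf11, Emc9 and Irf9. Of these only Pck2, a mitochondrial enzyme of gluconeogenesis, was called in SMA vehicle against wildtype, with a difference of 0.33 (limma adjusted p = 0.0241). The nearest tested gene, Emc9, differed by 0.23 (adjusted p = 0.16), and wildtype array 2 gave its lowest signal, 478.9. Irf9, which encodes the DNA-binding subunit of the complex that switches on interferon-induced genes, differed by -0.045 (adjusted p = 0.947). Its wildtype signals were 54.8, 211, 525.2 and 83, and the SMA vehicle arrays gave 134.9 to 178.3. Wildtype arrays 2 and 3 were thus above all SMA vehicle arrays and wildtype arrays 1 and 4 below them. The difference near 0 is a mean over that spread.

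**Figure D2:**
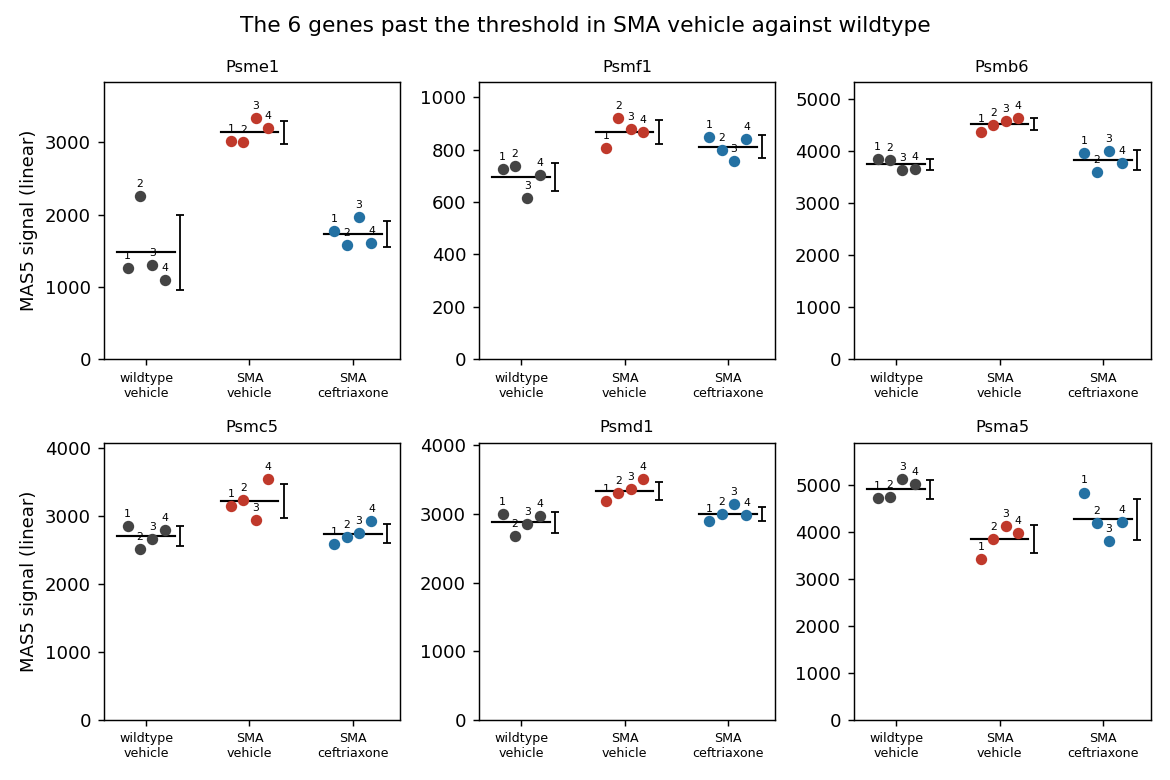
MAS5 signal (y axis, starting at 0) on each array of the 6 proteasome genes called in SMA vehicle against wildtype cords, by group. Horizontal lines are group means, the brackets beside them the SD over 4 arrays, and points single arrays with their replicate number. The 4 SMA vehicle arrays lie apart from the wildtype arrays in each panel, and the scale of the change differs widely between Psme1 and the other genes.

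Of the standard catalytic subunits, Psmb6 rose and the others did not pass the test. Psmb6 encodes the subunit of caspase-like activity. Its signals were 3841, 3832, 3628 and 3654 in wildtype. SMA vehicle cords had 4373, 4499, 4565 and 4624. Under ceftriaxone the signals were 3964, 3586, 4006 and 3763. Every SMA vehicle array was above every other array, and the wildtype and ceftriaxone arrays were mixed. The difference was 0.27 ± 0.058 (SE), or 1.21-fold, in SMA vehicle against wildtype (limma adjusted p = 0.00175), -0.24 ± 0.058 in ceftriaxone against vehicle (adjusted p = 0.00628) and 0.034 ± 0.058 in ceftriaxone against wildtype (adjusted p = 0.799).

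Psmb5, the subunit of chymotrypsin-like activity and a target of proteasome inhibitor drugs, had signals of 3878, 3377, 3755 and 3890 in wildtype. Signals in SMA vehicle cords were 3873, 3863, 3847 and 3916. On the ceftriaxone arrays they were 3521, 3649, 3661 and 3667. All ceftriaxone arrays were below all vehicle arrays of SMA mice, by a small margin, and the wildtype arrays spanned both. The difference was 0.059 ± 0.059 (SE; limma adjusted p = 0.438) in SMA vehicle against wildtype, -0.096 ± 0.059 (adjusted p = 0.227) in ceftriaxone against vehicle and -0.037 ± 0.059 (adjusted p = 0.78) in ceftriaxone against wildtype.

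Psmb7, the subunit of trypsin-like activity, gave the highest signals of any proteasome gene here, although levels of different probe sets cannot be ranked as amounts of RNA. The wildtype arrays gave 10821, 9232, 10854 and 11798. The SMA vehicle arrays gave 9832, 10519, 10279 and 10428. The ceftriaxone arrays gave 10770, 11243, 10986 and 11267. Ceftriaxone arrays were all above the SMA vehicle arrays, and wildtype array 2 was the lowest of all. The differences were -0.052 ± 0.07 (SE; limma adjusted p = 0.571), 0.11 ± 0.07 (adjusted p = 0.245) and 0.057 ± 0.07 (adjusted p = 0.701) in the order used above. Without wildtype array 2 the first was -0.12 (adjusted p = 0.0402) and the second 0.11 (adjusted p = 0.0495), so both were called.

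The promoters of the called genes Psme1 and Psmb6 are shown beside that of Psmb5, which was not called. Each is the stretch of 250 bases before the gene's start in RefSeq (build GRCm38.p6), written 5′ to 3′ on the strand of the gene. Psme1 lies at chr14:55578244-55578493 (+), Psmb6 at chr11:70525107-70525356 (+) and Psmb5 at chr14:54617996-54618245 (-). Capitals mark matches on either strand to TGACNNNGC (the core of the antioxidant response element, read by Nfe2l1 and Nfe2l2), CCAAT, the core of the interferon-stimulated response element (GAAA, 2 bases of any kind, GAAA), TTCNNNGAA (the core of the gamma-interferon activation site) or GGGCGG (a GC box).
Psme1: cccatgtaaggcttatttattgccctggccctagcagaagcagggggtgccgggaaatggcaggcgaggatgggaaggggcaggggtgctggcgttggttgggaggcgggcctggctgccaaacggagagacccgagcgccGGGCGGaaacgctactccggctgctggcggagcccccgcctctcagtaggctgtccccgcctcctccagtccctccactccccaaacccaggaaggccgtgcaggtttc
Psmb6: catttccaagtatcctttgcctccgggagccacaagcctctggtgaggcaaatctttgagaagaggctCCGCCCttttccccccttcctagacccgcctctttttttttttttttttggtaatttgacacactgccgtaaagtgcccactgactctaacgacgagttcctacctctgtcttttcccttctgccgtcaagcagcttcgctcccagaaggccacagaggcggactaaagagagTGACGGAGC
Psmb5: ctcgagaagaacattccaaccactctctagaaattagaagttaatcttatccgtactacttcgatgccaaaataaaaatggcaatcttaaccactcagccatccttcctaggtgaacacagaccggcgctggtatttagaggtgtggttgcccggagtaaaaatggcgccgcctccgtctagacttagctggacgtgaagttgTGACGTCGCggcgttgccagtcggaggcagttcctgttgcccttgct
Psmb6 and Psmb5 each hold 1 match to TGACNNNGC, Psmb6 directly before its start, and differ in their call. In the Psme1 stretch the marked match is a GC box, and no letters of either interferon motif are found in this window. Of the 48 genes, 40 had a promoter in the table. TGACNNNGC was found in 5 of them (Psmb5, Psmb6, Psmc6, Psmd12 and Psmd9), 12.5%, against 11.5% of 27025 genes. CCAAT was found in 15 (37.5%, against 37.5%), the interferon-stimulated core in 3 (7.5%, against 3.46%), TTCNNNGAA in 2 (5%, against 8.13%) and GGGCGG in 22 (55%, against 35.4%). A match is a run of letters and does not show that a factor binds there.

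The immunoproteasome subunits showed no difference by genotype or treatment past the threshold, and their spread came mainly from a single wildtype array. Psmb8 encodes the subunit that replaces Psmb5, and it lay below the filter. Its signals were 56.3, 2179.8, 267.3 and 37.9 in wildtype. On the SMA vehicle arrays they were 72.1, 55.4, 41.9 and 37.9. With ceftriaxone they were 79.6, 80.7, 77.4 and 64.8. Wildtype array 2 was the highest and wildtype array 3 the next, and the other wildtype arrays lay within the range of the SMA arrays. Fitted without the filter, Psmb8 differed by -1.74 ± 0.86 (SE; limma adjusted p = 0.153) in SMA vehicle against wildtype, and without wildtype array 2 by -0.63 ± 0.44 (SE; adjusted p = 0.286).

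Psmb9, which replaces Psmb6, was also highest on wildtype array 2 and next on wildtype array 3, with signals of 71.7, 1108, 175 and 85.8 in wildtype. In SMA vehicle cords they were 115, 86.7, 115 and 107. The ceftriaxone arrays gave 118, 95.5, 107 and 113. Its difference of -0.79 ± 0.59 (SE) in SMA vehicle against wildtype had a 95% interval from -2.05 to 0.48 (limma adjusted p = 0.29), and without wildtype array 2 it was 0.022 ± 0.22 (SE; adjusted p = 0.938). Between ceftriaxone and vehicle it differed by 0.034 ± 0.59 (SE; adjusted p = 0.97), and between ceftriaxone and wildtype by -0.75 ± 0.59 (adjusted p = 0.518). Psmb9 passed the filter by a small margin, with a mean log2 signal of 7.20 against a lowest kept mean of 7.14, and its mean without wildtype array 2 was 6.93.

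Psmb10, which replaces Psmb7, was much brighter: 1002, 1706, 1156 and 1025 in wildtype. The SMA vehicle arrays gave 1152, 1085, 1026 and 902. Ceftriaxone cords had 1028, 1028, 1021 and 1012. Wildtype array 2 was again highest, and the ceftriaxone arrays lay closer together than those of any other group. The difference was -0.20 ± 0.14 (SE; limma adjusted p = 0.266) in SMA vehicle against wildtype, -0.021 ± 0.14 (adjusted p = 0.925) in ceftriaxone against vehicle and -0.22 ± 0.14 (adjusted p = 0.425) in ceftriaxone against wildtype. Without wildtype array 2 these became -0.030, -0.021 and -0.050.

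The thymocyte sum named above was highest on the same array as Psmb8, Psmb9 and Psmb10, at Rag1 7863 and Cd3d 5576. On the 11 other arrays Rag1 did not exceed 129.9 and Cd3d did not exceed 53.8. The interferon-induced sum was highest on wildtype array 3, where Psmb8 and Psmb9 were next highest. The part of either in these values was not tested. Psme1 was the highest of its group on wildtype array 2 and not on wildtype array 3 (1295), and it was highest of all on the SMA vehicle arrays, whose interferon-induced sums lay between 1435 and 1802. Of the 10 interferon-induced genes in the sum, 2 lay above the filter. The part of interferon in the Psme1 values was not tested either.

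Antigen processing partners of the immunoproteasome, which load its peptides onto class I molecules, gave no call with all arrays in the fit. Of 10 genes listed, 8 were on the array and 7 were tested, and 0 were called by limma in any comparison. At an unadjusted p under 0.05 there were 2 genes in SMA vehicle against wildtype and 0 in the other comparisons. The shares of all probe sets at that level were 53.9% in SMA vehicle against wildtype, 45.6% in ceftriaxone against vehicle and 20.1% in ceftriaxone against wildtype. The 2 genes of the list were B2m, the light chain of class I molecules (-0.82, limma adjusted p = 0.0525), and the peptide transporter subunit Tap2 (-1.07, adjusted p = 0.0598). Summed signals of the list were 8035, 21742, 14813 and 8699 in wildtype, 9945 to 11249 in SMA vehicle and 9383 to 9701 in ceftriaxone cords. These sums cover the 8 genes on the array, and wildtype arrays 2 and 3 were high here as well. Without wildtype array 2, B2m differed by -0.51 ± 0.27 (SE; limma adjusted p = 0.119). Tap2 then differed by -0.46 ± 0.15 (SE; adjusted p = 0.0175), which passed the threshold, and by 0.39 ± 0.14 (SE; adjusted p = 0.0324) with ceftriaxone against vehicle. The class I gene H2-K1 was called there too, at 0.35 (adjusted p = 0.0149) and -0.35 (adjusted p = 0.013), so 1 of the 7 tested genes was higher and 1 lower in each of these comparisons. Without that array 58.4% and 50.2% of all probe sets were called in them.

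**Figure D3:**
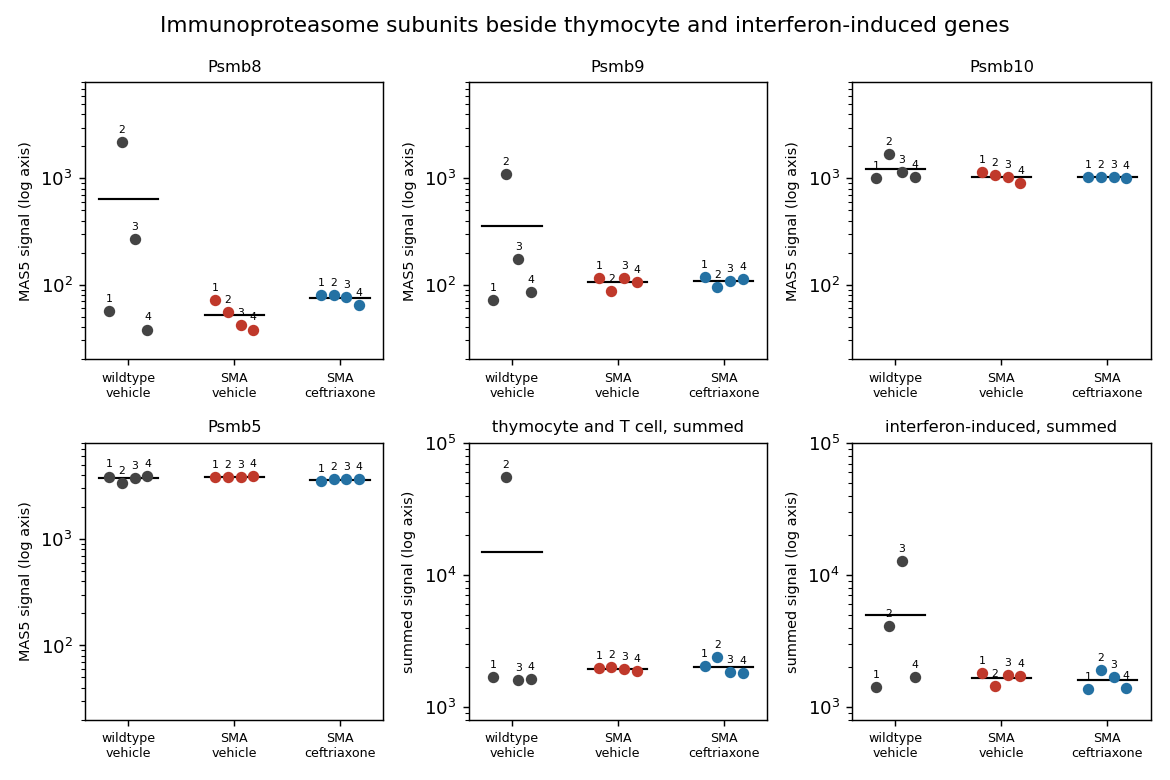
Signal (y axis, log scale) of Psmb8, Psmb9, Psmb10 and, for comparison, Psmb5 on each array by group, with the summed signals of 13 thymocyte and T cell genes and of 10 interferon-induced genes. Points are arrays with their replicate number and lines are arithmetic means; wildtype array 2 is highest for the immunoproteasome genes and the thymocyte sum, and lowest of the wildtype arrays for Psmb5.

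The promoters of the neighbouring genes Psmb8 and Psmb9, on chromosome 17 beside the peptide transporter genes, are shown for the same motifs. Psmb8 lies at chr17:34197945-34198194 (+) and Psmb9 at chr17:34187331-34187580 (-), in the same build.
Psmb8: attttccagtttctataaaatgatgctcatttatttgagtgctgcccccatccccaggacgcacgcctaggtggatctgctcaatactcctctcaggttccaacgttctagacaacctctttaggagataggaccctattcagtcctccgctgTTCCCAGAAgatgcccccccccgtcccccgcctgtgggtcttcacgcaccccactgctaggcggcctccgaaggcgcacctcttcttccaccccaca
Psmb9: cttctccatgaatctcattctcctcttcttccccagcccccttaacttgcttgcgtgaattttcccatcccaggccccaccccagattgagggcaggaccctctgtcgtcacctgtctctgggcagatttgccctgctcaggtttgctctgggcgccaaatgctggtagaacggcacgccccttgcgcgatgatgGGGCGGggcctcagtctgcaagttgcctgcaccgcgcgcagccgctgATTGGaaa
Psmb8 holds a match to TTCNNNGAA, and Psmb9 a CCAAT box and a GC box. Among the tested neighbours, Tap1 differed by 0.0036 (limma adjusted p = 0.995) in SMA vehicle against wildtype. H2-Ab1, a class II gene of antigen-presenting cells, fell by 1.55 (adjusted p = 0.00531) and was higher with ceftriaxone than with vehicle by 1.19 (adjusted p = 0.0309). Without wildtype array 2 the values were 0.39 for Tap1 (adjusted p = 0.153) and -1.12 for H2-Ab1 (adjusted p = 0.00404), and H2-Ab1 was higher by 1.19 with ceftriaxone (adjusted p = 0.00222).

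In the rest of the core, Psma5 fell and no other gene was called. Psma5, an alpha ring subunit, had signals of 4722, 4741, 5117 and 5014 in wildtype. SMA vehicle cords had 3423, 3839, 4129 and 3981. Under ceftriaxone the signals were 4834, 4195, 3799.5 and 4214. Every SMA vehicle array was below every wildtype array, and the ceftriaxone arrays lay across both groups. The difference was -0.35 ± 0.081 (SE), or 0.784-fold (limma adjusted p = 0.00305). It was 0.15 ± 0.081 (adjusted p = 0.179) in ceftriaxone against vehicle and -0.20 ± 0.081 (adjusted p = 0.177) in ceftriaxone against wildtype. A dimmer probe set of Psma5 differed by -0.11 (adjusted p = 0.168), and with its probe sets averaged the call was lost (-0.24, adjusted p = 0.0784).

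The 6 other alpha ring genes differed by -0.024 (Psma4) to 0.13 (Psma7) in SMA vehicle against wildtype. Psma7 was separated between the groups on every array, yet its adjusted p was 0.087. In ceftriaxone against vehicle the alpha ring genes ran from -0.17 (Psma1) to 0.15 (Psma5), with 0 of 7 called by limma and 0 at an unadjusted p under 0.05. That level was reached by 45.6% of all probe sets in this comparison. The 4 beta ring genes without a proteolytic site, Psmb1 to Psmb4, ran from -0.031 (Psmb1) to 0.10 (Psmb2) in SMA vehicle against wildtype and from -0.15 (Psmb2) to 0.091 (Psmb1) in ceftriaxone against vehicle. None of these 4 was called by limma, and 0 reached an unadjusted p under 0.05, against 53.9% and 45.6% of all probe sets. The core subunit of the testis, Psma8, gave 1.1 to 17.6 on all arrays.

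In the base of the regulatory particle, 1 of 6 ATPase genes was called. Psmc5 had signals of 2855, 2513, 2661 and 2795 in wildtype. Signals in SMA vehicle cords were 3144, 3241, 2942 and 3545. On the ceftriaxone arrays they were 2592, 2689.7, 2749 and 2926. SMA vehicle arrays were above all arrays of both other groups, which overlapped. Psmc5 differed by 0.25 ± 0.073 (SE), or 1.19-fold, in SMA vehicle against wildtype (limma adjusted p = 0.0132), by -0.23 ± 0.073 in ceftriaxone against vehicle (adjusted p = 0.0258) and by 0.018 ± 0.073 in ceftriaxone against wildtype (adjusted p = 0.925). The second call was lost when SMA vehicle array 2 or 4, or ceftriaxone array 1, 2 or 3, was left out, with adjusted p from 0.0517 to 0.0897.

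The other ATPase genes ran from -0.13 (Psmc3) to 0.063 (Psmc1) in SMA vehicle against wildtype. Psmc3 was lower on every SMA vehicle array than on every wildtype array, and higher again on every ceftriaxone array, without a call (adjusted p = 0.069 and 0.187). Of the base subunits that are not ATPases, the scaffold subunit Psmd1 was called. Its signals were 3002, 2674, 2852 and 2974 in wildtype. On the SMA vehicle arrays they were 3188, 3301, 3362 and 3506. With ceftriaxone they were 2896, 2995, 3143 and 2984. No SMA vehicle array overlapped either other group. The difference was 0.22 ± 0.061 (SE), or 1.16-fold (limma adjusted p = 0.0111). In ceftriaxone against vehicle it was -0.15 ± 0.061 (adjusted p = 0.0712), which was called only without wildtype array 2 among the single arrays left out (adjusted p = 0.0204). Ceftriaxone against wildtype differed by 0.064 ± 0.061 (adjusted p = 0.61). Psmd2, another scaffold, differed by 0.002, and the ubiquitin receptor Psmd4 by -0.035, in SMA vehicle against wildtype.

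None of the 8 lid genes was called by limma in any comparison, and Psmd7 alone of them reached an unadjusted p under 0.05. That level was reached by 53.9%, 45.6% and 20.1% of all probe sets in the 3 comparisons. In SMA vehicle against wildtype the differences of the lid genes ran from -0.047 (Psmd6) to 0.18 (Psmd7, adjusted p = 0.0617), with a median of -0.013. In ceftriaxone against vehicle they ran from -0.086 (Psmd7) to 0.059 (Psmd12). Psmd14, the enzyme that cuts ubiquitin chains from the substrate, had mean signals of 3683 ± 94.9 (SD, n = 4), 3617 ± 167 and 3715 ± 261 in wildtype, SMA vehicle and ceftriaxone cords. Its difference of -0.027 ± 0.065 (SE) in SMA vehicle against wildtype had a 95% interval from -0.17 to 0.11. Psmd13 was higher on every SMA array, of either treatment, than on every wildtype array, without a call (adjusted p = 0.123 and 0.321).

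**Figure D4:**
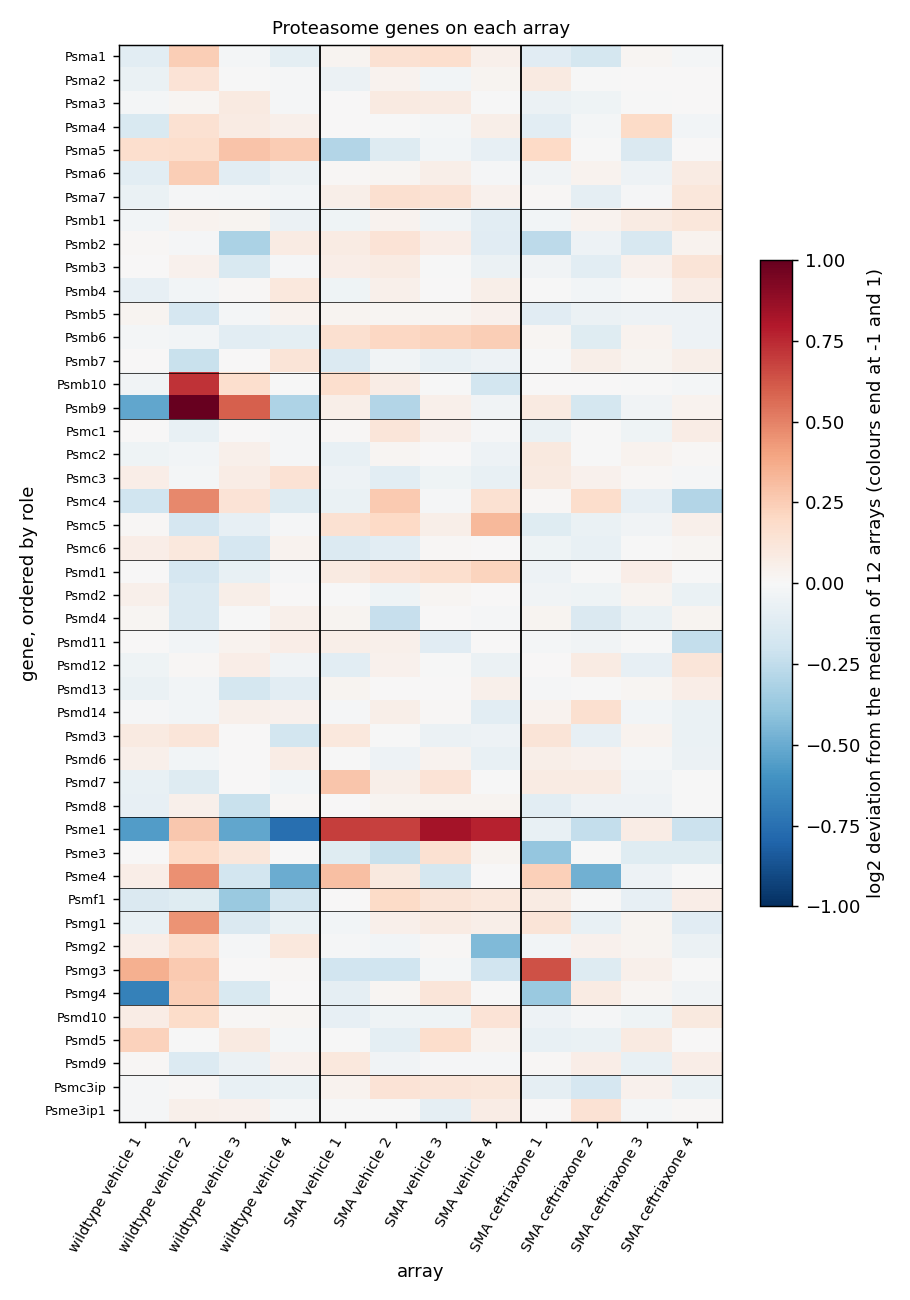
Log2 deviation of each tested proteasome gene (y axis, ordered by role) on each array (x axis) from that gene's median over the 12 arrays, with colours ending at -1 and 1. Psme1 is high on the 4 SMA vehicle arrays, wildtype array 2 is high for Psmb9 and Psmb10, and most core, base and lid genes are pale throughout.

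The inhibitor gene Psmf1, which encodes PI31, rose in SMA vehicle cords. Its signals were 724, 738, 617 and 704 in wildtype. In SMA vehicle cords they were 805, 919, 877 and 865. The ceftriaxone arrays gave 849.5, 800, 756 and 839. Wildtype arrays were below all SMA arrays of either treatment, and the SMA groups overlapped. Psmf1 was 1.24-fold higher in SMA vehicle cords (0.31 ± 0.08, SE; limma adjusted p = 0.00572). It differed by -0.094 ± 0.08 (adjusted p = 0.385) between ceftriaxone and vehicle and by 0.22 ± 0.08 (adjusted p = 0.142) between ceftriaxone and wildtype.

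A pair of dimmer Psmf1 probe sets rose more in SMA vehicle cords, by 0.54 each (limma adjusted p = 0.000105 and 0.00099). The first of them was lower with ceftriaxone than with vehicle (-0.26, adjusted p = 0.0208). The other was higher in ceftriaxone than in wildtype cords (0.41, adjusted p = 0.046). Psmf1 was thus called in all its tested probe sets in SMA vehicle against wildtype, and in some of them in the other comparisons.

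No assembly chaperone was called by limma, and 0 of them reached an unadjusted p under 0.05. The shares of all probe sets at that level were 53.9%, 45.6% and 20.1% in the 3 comparisons. The core assembly genes Psmg1 to Psmg4 ran from -0.31 (Psmg3) to 0.16 (Psmg4) in SMA vehicle against wildtype. Psmg3 was lower on every SMA vehicle array than on every wildtype array, with an adjusted p of 0.105, and differed by 0.29 ± 0.15 (SE; adjusted p = 0.146) between ceftriaxone and vehicle. The base assembly genes Psmd5, Psmd9 and Psmd10 differed by -0.081 to 0.048 in the first comparison and by -0.041 to 0.006 in the second. The proteins that only share the name, Psmc3ip (a meiotic recombination factor) and Psme3ip1, differed by 0.13 and -0.023 in the first comparison and by -0.17 and 0.043 in the second, with 0 calls by limma (Psmc3ip had an unadjusted p under 0.05 in the second).

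Other probe sets of the same genes did not always give the same call. Of the 85 probe sets, 68 were tested, which leaves 22 beside the brightest ones, and 17 genes had more than 1 tested probe set. Of these 22, 6 were called in SMA vehicle against wildtype, 2 in ceftriaxone against vehicle and 2 in ceftriaxone against wildtype. The shares of all probe sets were 47.2%, 35.9% and 4.21%. Calls in SMA vehicle against wildtype differed among the probe sets of 5 genes: Psma5, Psmb3, Psmc6, Psmd11 and Psme4. A second probe set of Psmc6 rose by 0.51 (limma adjusted p = 7.85e-05) while the brightest differed by -0.068, and the same probe set was higher in ceftriaxone than in wildtype cords (0.37, adjusted p = 0.0149). A probe set of Psmb3 fell by 0.21 (adjusted p = 0.0271), and a probe set of Psmd11 rose by 0.26 (adjusted p = 0.00923). A dim probe set of Psme4 fell by 0.44 (adjusted p = 0.0164) and was higher with ceftriaxone than with vehicle by 0.51 (adjusted p = 0.00986), while its brightest was not called. Which probe set follows the RNA of its gene more closely was not tested.

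On single arrays the standard subunits moved little. Taking each gene's mean over the 12 arrays as its reference, the median deviation of the 31 genes of the standard core, base and lid lay between -0.028 and 0.044 on the log2 scale over the 12 arrays. The spread of the 31 deviations within an array (SD) was widest on wildtype array 2, at 0.14, and was 0.066 to 0.11 on the others. Over all probe sets the SD was also widest on that array, at 0.54.

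Genes that act with the proteasome but have other names were read from lists. Among 11 tested genes for further subunits and bound proteins, 2 rose with SMA in the vehicle cords and 0 fell, beside 24.9% higher and 22.3% lower over all probe sets. Usp14, a deubiquitinase bound to the base, rose by 0.23 (limma adjusted p = 0.0405), and Akirin2, which carries proteasomes into the nucleus, rose by 0.25 (adjusted p = 0.00546). Akirin2 was lower with ceftriaxone than with vehicle (-0.19, adjusted p = 0.0384). The median over the list was -0.034. Usp14 was not called against wildtype without wildtype array 2 (0.18, adjusted p = 0.0652). In that fit 1 of the 11 genes was higher and 1 lower in SMA vehicle cords, against 30.9% and 27.5% of all probe sets. With ceftriaxone against vehicle, 2 were lower and 0 higher, against 25.6% and 24.6%.

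Of 9 tested shuttle and extraction factors, which bring ubiquitinated proteins to the proteasome, 3 rose in SMA vehicle cords and 0 fell, against the same shares of all probe sets. With ceftriaxone 2 of the 9 were lower than with vehicle and 0 higher, against 17.7% lower and 18.3% higher. They were Bag6, a chaperone of misplaced membrane proteins (0.40, limma adjusted p = 0.000694), and the ubiquilins Ubqln4 (0.31, adjusted p = 0.00988) and Ubqln2 (0.24, adjusted p = 0.0144). Bag6 (-0.28, adjusted p = 0.00981) and Ubqln4 (-0.27, adjusted p = 0.0267) were lower with ceftriaxone than with vehicle. Without wildtype array 2, 4 of the 9 were higher and 1 lower in SMA vehicle cords, against 30.9% and 27.5% of all probe sets. With ceftriaxone, 4 were then lower and 0 higher, against 25.6% and 24.6%. Of 2 tested ubiquitin and first-enzyme genes, the neuronal hydrolase Uchl1 rose (0.35, adjusted p = 0.0444). Its wildtype signals were 7785, 4949, 7974 and 8469, lowest on array 2, and the SMA vehicle arrays gave 8481 to 9509. Without wildtype array 2, 1 of these 2 genes was higher in SMA vehicle cords, and 2 were lower with ceftriaxone than with vehicle. The shares of all probe sets were 30.9% and 25.6%.

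Of 4 tested genes for the transcription of proteasome genes and its activation, 2 fell in SMA vehicle cords and were higher with ceftriaxone, where 22.3% of all probe sets fell and 18.3% were higher. Ngly1, which removes the sugars from Nfe2l1 and so lets it work, had signals of 1084, 1311, 1114 and 1148 in wildtype. The SMA vehicle arrays gave 774, 778, 747 and 766. Ceftriaxone cords had 1044, 1139, 1064 and 1089. SMA vehicle arrays were below all others. Ngly1 differed by -0.59 ± 0.073 (SE; limma adjusted p = 3e-05) and, with ceftriaxone against vehicle, by 0.49 ± 0.073 (SE; adjusted p = 0.000286). Nfe2l2, the regulator of antioxidant genes, fell by 1.64 and was higher by 1.39 with ceftriaxone.

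Nfe2l1, the factor best known for raising proteasome genes when the proteasome is inhibited, differed by -0.39 (limma adjusted p = 0.135) and 0.44 (adjusted p = 0.109) in the same comparisons. Both differences were called without wildtype array 2, at -0.64 (adjusted p = 0.000656) and 0.44 (adjusted p = 0.00601). The ATPase Vcp, which extracts it from the membrane, differed by 0.15 (adjusted p = 0.077) in SMA vehicle against wildtype. Of the tested genes on the pathway lists (11, 9, 2, 4 and, for antigen processing, 7), 0 were called by limma in ceftriaxone against wildtype cords. At an unadjusted p under 0.05 there was 1. The shares of all probe sets were 4.21% called and 20.1% unadjusted, so 0 calls do not set these genes apart.

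Markers of several cell types moved with the groups. Over all probe sets, 24.9% were higher and 22.3% lower in SMA vehicle against wildtype. The shares were 18.3% and 17.7% in ceftriaxone against vehicle, and 3.29% and 0.928% in ceftriaxone against wildtype. In SMA vehicle against wildtype, all 11 tested oligodendrocyte markers fell, with summed signals of 98338 to 158636 in wildtype, 28465 to 59894 in SMA vehicle and 113994 to 126894 in ceftriaxone cords. Of 13 tested microglia markers 8 fell, and of 12 endothelial markers 7 fell. Of 12 astrocyte markers 3 rose, about the share of all probe sets, and 6 fell. Of 13 neuron markers 9 rose and 2 fell. All 3 tested skeletal muscle genes rose, and the sums over the 9 muscle genes on the array were 691 to 1839 in wildtype, 2741 to 6526 in SMA vehicle and 302 to 878 in ceftriaxone cords. Between ceftriaxone and vehicle, all 11 oligodendrocyte markers, 8 astrocyte, 7 endothelial and 6 microglia markers were higher, and 0 markers of these lists were lower. Of the neuron markers 1 was higher and 8 were lower, and the 3 muscle genes were lower. Between ceftriaxone and wildtype, 3 astrocyte markers were higher, and 2 neuron markers were higher and 1 lower. Their part in the changes of Psme1, Psmb6, Psmc5, Psmd1, Psmf1 and Psma5 was not tested.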

How the data were processed

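Spinal cord RNA was measured on 12 expression arrays, 4 in each of 3 groups taken from the labels. The authors deposited a linear signal intensity for each probe set, computed with MAS5 per the submitters' processing notes; its version is not given in the sources here. The authors' scaling made the mean without the top and bottom 2% nearly equal on all arrays (698.1 to 699.9). Of 22690 probe sets, 20393 had 1 gene symbol in the platform annotation, updated through gene identifiers for 20364. After removing 64 control probe sets, an offset of 16 was added, log2 taken, and probe sets with a mean above the 40th percentile kept (13575). Group means were fitted with limma 3.58.1 in R 4.3.3 (eBayes with intensity trend, 9 residual degrees of freedom, two-sided tests, Benjamini-Hochberg over all kept probe sets). The offset understates changes of dim genes, and detection calls were not used here.

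The proteasome genes, the pathway and marker lists and the tests were chosen with earlier results of these data known. Values on every array are given for the catalytic and 11S subunits and, in each other role, for the called gene of largest difference each way; the Ngly1 signals, the further probe sets and the neighbouring genes were chosen after their values were seen. Promoters came from a RefSeq table of build GRCm38.p6. The fit was tested on simulated data. Tried instead were offsets 1 and 64, median centring or quantile normalization, a filter at the 60th percentile or none, no trend, weights for array quality, only the compared groups in the fit, a block for the replicate number, probe sets averaged by gene, Xist or the Gapdh ratio as a covariate, each array left out, and, added after seeing the data, wildtype arrays 2 and 3 left out and, for genes of the lists and neighbours, wildtype array 2 left out.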

Additional observations from a re-analysis of the deposited data

Results flagged for a closer look

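In 10 of 144 groups of 4 arrays, a single array lay far from the other arrays of its group: the gap to its nearest neighbour, as a share of the group's range on the log2(signal + 16) scale, was above Dixon's 95% critical value. The signals below are linear, the gaps are on the log2 scale. On linear signals 13 groups passed: the same 10, and wildtype array 2 for Psmb8 (gap 0.893, against 0.552 on the log2 scale), Psmb9 (0.9 against 0.695) and Psme1 (0.83 against 0.772). Chance alone gives about 1 in 20 such groups. Wildtype array 2 was the lone high array for Psma6, an alpha ring subunit (6532 against 5123 to 5309.9, gap 0.852 of the range), and for Psmg1, a core assembly chaperone (1071 against 706 to 743, gap 0.878). Ceftriaxone array 1 was high for Psma2 (4337 against 4062 to 4092, gap 0.889) and low for Psmb5 (3521 against 3649 to 3667, gap 0.882). Ceftriaxone array 4 was low for the lid gene Psmd11 (3715 against 4269.9 to 4371, gap 0.856), and ceftriaxone array 2 was high for Psme3ip1 (1326 against 1182 to 1204, gap 0.842).

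Among SMA vehicle cords, array 2 was low for the ubiquitin receptor Psmd4 (2489 against 2899 to 2981, gap 0.845). Array 1 was low for the lid gene Psmd8, by a small amount (3407 against 3459.8 to 3463, gap 0.937). Array 4 was low for the assembly chaperone Psmg2 (966 against 1290.5 to 1328, gap 0.91), and array 3 was high for Psmg3 (459 against 402.5 to 405, gap 0.951). None of the genes with a lone array on the log2 scale was called in any comparison with all arrays in the fit.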

How the results depend on the processing

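In SMA vehicle against wildtype, 5 proteasome genes were higher and 1 was lower. With array quality weights the counts were 9 and 3, with probe sets averaged by gene 8 and 0, and the lower count was 2 with quantile normalization, 2 with only the groups compared and 3 without wildtype arrays 2 and 3. Leaving out each array in turn gave 5 to 8 higher and 1 to 3 lower. In ceftriaxone against vehicle, 0 were higher and 3 were lower; array quality weights gave 6 lower, only the groups compared 1 higher and 5 lower, leaving out wildtype arrays 2 and 3 gave 5 lower, and single arrays left out gave 0 to 1 higher and 2 to 6 lower. In ceftriaxone against wildtype, the 0 higher and 0 lower became 1 and 1 with array quality weights and 1 higher without wildtype arrays 2 and 3, and 0 to 1 higher and 0 lower with single arrays left out. The cause was not tested. With all arrays, 47.2%, 35.9% and 4.21% of all probe sets were called in the 3 comparisons. Without wildtype array 2 the shares were 58.4%, 50.2% and 10.6%. For the other settings the counts are given here without that share, so they do not show a change particular to the proteasome genes. The other alternatives kept each count within 1.5 times. With the replicate number as a block the counts were 5 and 1, 0 and 3, and 0 and 0, so the block changed no count. No pairing by number was seen: the deviations of same-numbered arrays correlated at -0.14 to 0.13, and those of other pairs at -0.27 to 0.20. With these overlapping ranges a weak pairing would not be seen.

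Signs turned for uncalled genes. In SMA vehicle against wildtype, Psmb9 ran from -1.20 to 0.022 with single arrays left out (highest without wildtype array 2) and was 0.36 without wildtype arrays 2 and 3, where Psmb5 was -0.0033 and Psmb10 was 0.033. In ceftriaxone against vehicle, Psmb9 was -0.030 with quantile normalization, -0.0054 with median centring and -0.046 to 0.086 with single arrays left out (below 0 without SMA vehicle array 2 or ceftriaxone array 1); Psmb10 was 0.0011 with quantile normalization, 0.0078 with the Xist covariate and -0.087 to 0.030 with single arrays left out (above 0 without SMA vehicle array 1 or 2). In ceftriaxone against wildtype, Psmb7 was -0.0075 with array quality weights, -0.011 to 0.11 with single arrays left out (lowest without wildtype array 2) and -0.030 without wildtype arrays 2 and 3; Psmc5 was -0.0055 with array quality weights, -0.021 with the Xist covariate, -0.017 to 0.044 with single arrays left out (below 0 without wildtype array 2 or ceftriaxone array 4) and -0.045 without wildtype arrays 2 and 3; Psmb9 ran from -1.17 to 0.056 with single arrays left out (highest without wildtype array 2) and was 0.39 without wildtype arrays 2 and 3, where Psmb10 was 0.012. Median centring moved the median difference of the proteasome genes from 0.0014 to 0.047 in SMA vehicle against wildtype and from -0.017 to -0.057 in ceftriaxone against vehicle.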
